A study of Homo sapiens with 6 samples.

Results

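The genes described here are 35 genes of the MYC and ribosome biogenesis group: MYC itself and 34 genes whose proteins build or modify ribosomes in the nucleolus or act in nucleolar growth control. They were taken by name, with no threshold on measured values, and the RefSeq transcripts of each were summed per gene. All 35 were present among 28571 genes, and all 35 passed the filter on low counts that 17122 genes passed. The expression data are RNA sequencing counts from 6 libraries of A549, an established human lung adenocarcinoma cell line. Stable lines had been made by infection with lentivirus, which carried a control short hairpin RNA in 2 libraries and a hairpin against CBX8 (shCBX8) in the other 4, titled shcbx8-1 and shcbx8-2 and called shCBX8-1 and shCBX8-2 here, with 2 libraries each. All 6 libraries therefore came from infected cells that express a hairpin, and an uninfected line is not among the samples used here. The labels give neither the meaning of the first number, nor the hairpin sequences, nor whether the libraries within a group are separate cultures. The p-values then measure only the spread between these libraries, which may be technical. CBX8 is a chromobox subunit of the Polycomb repressive complex PRC1, and the study's stated comparison is of gene expression between knockdown and control cells.

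Ribosomes are assembled in the nucleolus, where RNA polymerase I transcribes the ribosomal DNA into a long precursor. Small nucleolar ribonucleoproteins (snoRNPs) guide its chemical modification, the box H/ACA class for pseudouridine and the box C/D class for ribose methylation, and sets of assembly factors then cut and fold it into the small and the large subunit. MYC is a transcription factor that binds E-box DNA with its partner MAX and is known for raising the expression of many of these factors in growing cells, lung adenocarcinoma cells among them.

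Levels are given as CPM, estimated counts scaled by each library's total after that total was adjusted by its TMM factor from edgeR. The scaled libraries therefore do not share a common total. A difference is a log2 fold change from the fitted model, which used the same scaling, with its standard error (SE). Scaling by the totals alone was not among the alternatives run, so the effect of the TMM factors on the differences was not tested. A gene is said to have risen or fallen where its p-value, adjusted over all 17122 genes by Benjamini and Hochberg, was under 0.05 in edgeR's quasi-likelihood test. Of the 35 genes, 4 rose and 0 fell in knockdown cells against control, namely DKC1, NOP56, TCOF1 and PA2G4. Among all genes tested, 3.31% rose and 3.47% fell in that comparison. In shCBX8-1 alone 1 of the 35 rose, DKC1, beside 1.30% of all genes that rose and 1.10% that fell. In shCBX8-2 alone 6 rose, TCOF1, NOP56, NCL, PA2G4, DKC1 and NOP16, beside 6.0% of all genes that rose and 6.61% that fell. None of the 35 fell in any of these comparisons. At an unadjusted p under 0.05 there were 11 genes for the knockdown mean, of which WDR12 was lower, and DESeq2 called 8 higher and 0 lower, beside 7.83% of all genes that it called higher. In shCBX8-1 and shCBX8-2 there were 6 and 15 genes at an unadjusted p under 0.05, and DESeq2 called 3 and 12 higher and 0 lower, beside 4.88% and 10.7% of all genes called higher. The counts at an unadjusted p under 0.05, here and below, have no share of all genes beside them and were not compared with one. In either direction, DESeq2 called 14.3%, 8.63%, 20.8% and 17.3% of all genes for the knockdown mean, shCBX8-1, shCBX8-2 and shCBX8-2 against shCBX8-1. For the knockdown mean the 35 log2 fold changes ran from -0.19 to 0.42 with a median of 0.11, beside a median of -0.04 over all genes. The medians were 0.07 in shCBX8-1 and 0.16 in shCBX8-2, beside -0.01 and -0.04 over all genes. Log2 fold changes above 0 were found in 29 of the 35 (82.9%) for the knockdown mean, 23 (65.7%) for shCBX8-1 and 30 (85.7%) for shCBX8-2, beside 44.7%, 48.6% and 45.6% of all genes. The 2 knockdown groups were compared with the same control libraries. In bulk libraries such as these, a change in the share of cells that express a gene and a change in RNA per cell cannot be told apart.

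The calls depended on single libraries. Without control replicate 1 or without control replicate 2, 0 of the 35 genes were called in any comparison with control. Without shCBX8-1 replicate 1 or replicate 2, 0 were called for the knockdown mean, whereas 9 were called without shCBX8-2 replicate 1 and 12 without shCBX8-2 replicate 2. Over all genes the same settings moved the knockdown calls from 1161 to 1, 1, 17, 16, 3235 and 4448, in that order.

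CBX8, the targeted gene, stood at 24.6 and 26.3 CPM in control, at 7.79 and 7.7 under shCBX8-1 and at 17.7 and 13.8 under shCBX8-2. The groups did not overlap, and the residual level was higher in shCBX8-2. On the log2 scale the change was -1.72 ± 0.15 (SE) in shCBX8-1 (adjusted p = 0.00696) and -0.69 ± 0.15 in shCBX8-2 (adjusted p = 0.0295), and shCBX8-2 was above shCBX8-1 by 1.02 ± 0.15 (adjusted p = 0.0114). Both calls against control ended when any of the 2 control or 2 shCBX8-1 libraries was left out, with adjusted p up to 0.148 in shCBX8-1 and 0.169 in shCBX8-2, and the difference between the groups ended without either shCBX8-1 library, with adjusted p up to 0.119. Total estimated counts were 64197784 to 67169537 per library. The 2 shCBX8-2 libraries stood further apart than the other pairs: the median absolute log2 difference between them was 0.24 over all genes and 0.12 over the 35, against 0.13 and 0.06 in control and 0.13 and 0.08 in shCBX8-1. Over 16046 genes, the deviation of a library from the mean of all 6 had a Spearman correlation with transcript GC content of 0.337 in shCBX8-2 replicate 1 and -0.245 in replicate 2, and of -0.159 to -0.0149 in the other 4. The line was checked against markers. KRT8, KRT18 and AKR1B10, which A549 cells express, were between 3447 and 17123 CPM. KRT7 stood between 1852 and 2576, and EPCAM was low at 3.05 to 8.39. CDKN2A and CDKN2B, which are deleted in A549, were at 0 in every library. Of the 8 genes checked as present, 0 rose and 3 fell for the knockdown mean, ALDH3A1, AKR1C1 and ALDH1A1. In shCBX8-1 0 rose and 2 fell, ALDH3A1 and AKR1C1. In shCBX8-2 3 rose, KRT8, KRT18 and EPCAM, and 2 fell, ALDH1A1 and ALDH3A1. Beside these, 3.31%, 1.30% and 6.0% of all genes rose and 3.47%, 1.10% and 6.61% fell. Markers of other cell types were near 0, with DCN and KDR at 0 in every library and PTPRC at 0.181 CPM at most. The summed CPM of 8 leukocyte markers was 86.9 to 127, nearly all of it CD68, and without CD68 6.54 to 7.14 in control, 5.19 to 5.47 in shCBX8-1 and 3.32 to 5.88 in shCBX8-2. For 8 fibroblast markers the sums were 12.5 to 15, 8.94 to 10 and 5.61 to 6.24, and for 5 endothelial markers 1.88 to 2.74, 2.73 to 4.12 and 4.24 to 5.72, in the same order of groups. Their part in the results was not tested.

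MYC (chr8:127735434-127742951, GRCh38) was higher in all 4 knockdown libraries than in both controls, but the difference did not pass the test. Its levels were 200 and 210 CPM in control, 231 and 232 under shCBX8-1 and 233 and 227 under shCBX8-2. The knockdown groups did not overlap with control and overlapped with each other. The log2 fold change was 0.17 ± 0.06 (SE) for the knockdown mean (adjusted p = 0.141), 0.17 ± 0.07 in shCBX8-1 (adjusted p = 0.249) and 0.16 ± 0.07 in shCBX8-2 (adjusted p = 0.162), and shCBX8-2 differed from shCBX8-1 by -0.01 ± 0.07 (adjusted p = 0.941). MYC passed for the knockdown mean with the DESeq2 Wald test (adjusted p = 0.0292), with a correction for GC content (0.0483), and when either shCBX8-2 library was left out (0.0479 for replicate 1, 0.0347 for replicate 2), and over all alternatives its adjusted p ran from 0.0292 to 0.495. The 2 RefSeq transcripts listed for MYC kept similar shares, the more abundant one holding 58.2 to 65.1% of the gene's estimated counts in a library.

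**Figure D1:**
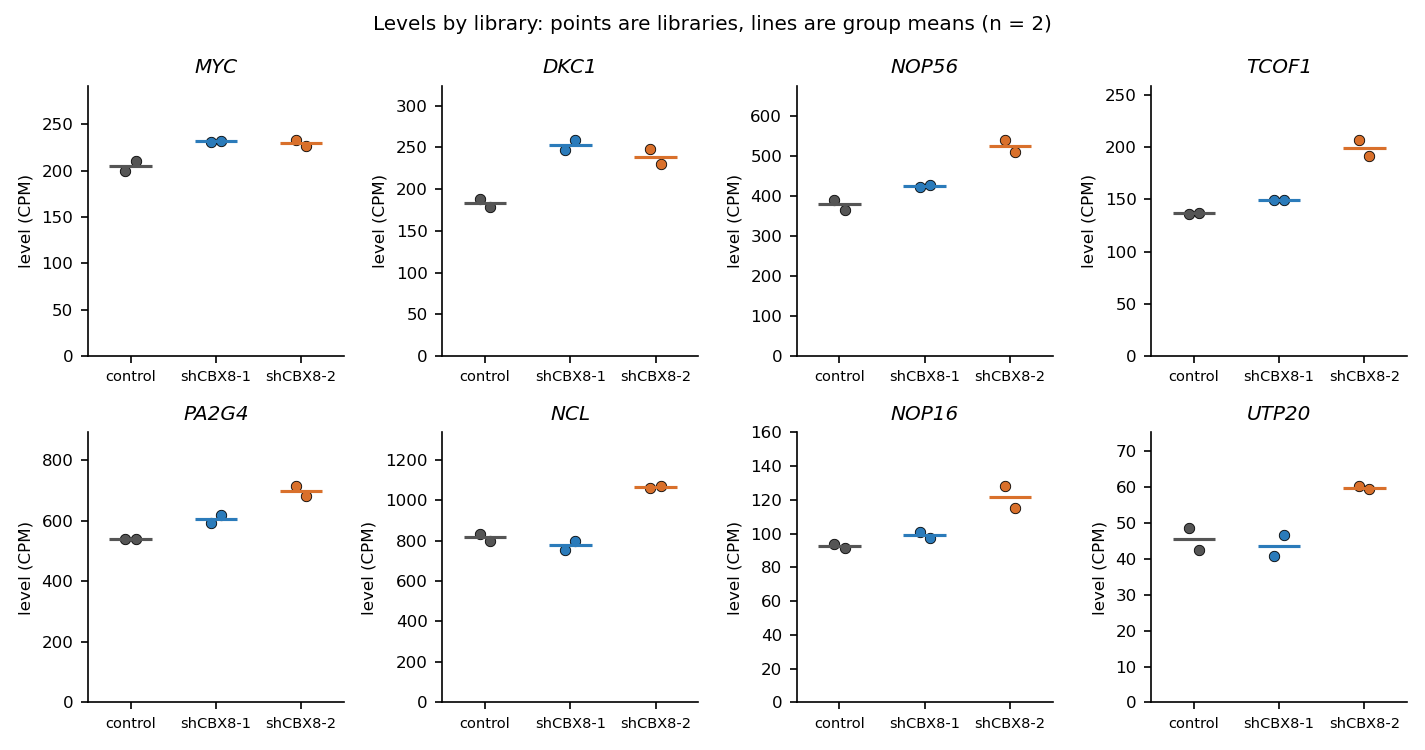
Level in CPM (y axis, linear, from 0) of MYC and the 7 genes that passed in at least 1 comparison, by group (x axis). Each point is a library and each line the mean of the 2 libraries of a group. MYC and DKC1 stand at one level in both knockdown groups, 227 to 233 and 230 to 259 CPM, whereas the shCBX8-2 libraries of NCL, at 1061 and 1067 CPM, and of UTP20, at 60.2 and 59.6 CPM, stand above all others.

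The promoters of the 3 genes with the smallest p-values for the knockdown mean that the RefSeq promoter table (GRCh38.p14) holds are shown to let the E-box matches be read in place, and that of UTP20 is shown because it holds the canonical one. The UTP20 promoter was added after its match had been seen. Each is the 250 bases before the annotated start on the + strand, in lower case, with matches to the motifs searched in capitals. DKC1 is at chrX:154762614-154762863, NOP56 at chr20:2652382-2652631, PA2G4 at chr12:56104309-56104558 and UTP20 at chr12:101279855-101280104.
DKC1: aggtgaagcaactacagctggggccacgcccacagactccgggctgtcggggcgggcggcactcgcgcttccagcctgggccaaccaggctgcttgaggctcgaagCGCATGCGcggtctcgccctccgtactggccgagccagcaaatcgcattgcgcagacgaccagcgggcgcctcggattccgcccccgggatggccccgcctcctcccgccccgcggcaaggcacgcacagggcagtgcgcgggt
NOP56: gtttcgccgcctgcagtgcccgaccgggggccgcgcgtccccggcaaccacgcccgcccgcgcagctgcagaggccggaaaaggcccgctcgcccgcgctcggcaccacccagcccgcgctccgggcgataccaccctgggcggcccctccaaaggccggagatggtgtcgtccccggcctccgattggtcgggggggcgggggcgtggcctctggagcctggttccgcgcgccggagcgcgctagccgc
PA2G4: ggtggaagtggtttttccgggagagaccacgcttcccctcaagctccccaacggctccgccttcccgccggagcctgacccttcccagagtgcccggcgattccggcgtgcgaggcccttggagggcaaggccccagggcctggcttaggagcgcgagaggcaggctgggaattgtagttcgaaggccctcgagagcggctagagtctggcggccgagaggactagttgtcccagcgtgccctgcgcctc
UTP20: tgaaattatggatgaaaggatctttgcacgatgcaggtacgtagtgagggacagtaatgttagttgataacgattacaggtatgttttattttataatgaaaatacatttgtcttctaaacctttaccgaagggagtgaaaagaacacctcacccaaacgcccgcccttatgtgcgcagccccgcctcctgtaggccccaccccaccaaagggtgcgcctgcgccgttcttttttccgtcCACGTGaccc
The motifs searched were CACGTG, the canonical E-box, which reads the same on both strands, and 2 variants, CACGCG and CATGCG, with their reverse complements CGCGTG and CGCATG. The canonical E-box was found in 2 of the 28 members' promoters in the table, those of NOP10 and UTP20, and in 6.49% of all 27305 promoters of that length. CACGCG was found in 4 (DDX10, DDX21, FBL and NPM1) and in 9.62% of all. CATGCG was found in 4 (DDX10, DKC1, MYBBP1A and NOB1) and in 6.11% of all. In DKC1 the CGCATG and CATGCG matches overlap. The NOP56 and PA2G4 windows hold none of these letters. The median GC content of the members' windows was 62.6%, beside 58% for all. A match is a run of letters and not a measured binding site.

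In the box H/ACA snoRNP, DKC1 rose in both knockdown groups and none of its 3 core partners passed the test. DKC1 (chrX:154762864-154777689) encodes dyskerin, the pseudouridine synthase, which also stabilises telomerase RNA. It stood at 188 and 179 CPM in control, 247 and 259 under shCBX8-1 and 248 and 230 under shCBX8-2. All 4 knockdown libraries were above both controls. Its log2 fold change was 0.42 ± 0.07 (SE) for the knockdown mean (adjusted p = 0.0178), a rise of 33.9%, with 0.46 ± 0.07 in shCBX8-1 (adjusted p = 0.0338) and 0.38 ± 0.07 in shCBX8-2 (adjusted p = 0.0225). The difference between the knockdown groups was -0.08 ± 0.07 (adjusted p = 0.527). The partners NOP10, NHP2 and GAR1, small proteins that bind dyskerin, had log2 fold changes of 0.01 ± 0.09, 0.05 ± 0.06 and 0.01 ± 0.13, with adjusted p from 0.66 to 0.969. The DKC1 call for the knockdown mean ended without control replicate 1 (adjusted p = 0.138), control replicate 2 (0.184), shCBX8-1 replicate 1 (0.0789) or shCBX8-1 replicate 2 (0.084), and those in each group ended in the same 4 settings, at 0.174, 0.251, 0.227 and 0.208 in shCBX8-1 and at 0.0973, 0.147, 0.0534 and 0.0546 in shCBX8-2. With only the libraries compared in the fit, DKC1 had adjusted p = 0.0517 in shCBX8-2.

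In the box C/D snoRNP, NOP56 rose, with a larger change in shCBX8-2. NOP56 (chr20:2652632-2658393), a core scaffold protein of these particles, stood at 391 and 366 CPM in control, 422 and 428 under shCBX8-1 and 540 and 511 under shCBX8-2. The 3 groups did not overlap and stood in that order. On the log2 scale the change was 0.32 ± 0.06 (SE) for the knockdown mean (adjusted p = 0.0277), 0.17 ± 0.07 in shCBX8-1 (adjusted p = 0.269) and 0.47 ± 0.07 in shCBX8-2 (adjusted p = 0.00819), and shCBX8-2 was above shCBX8-1 by 0.31 ± 0.07 (adjusted p = 0.038). Its paralogue and partner NOP58 stood at 0.07 ± 0.07 (adjusted p = 0.637) and fibrillarin (FBL), the methyltransferase of the particle, at 0.06 ± 0.06 (adjusted p = 0.635). The NOP56 knockdown call ended without control replicate 1 (adjusted p = 0.142), control replicate 2 (0.23), shCBX8-1 replicate 1 (0.0978) or shCBX8-1 replicate 2 (0.104). That in shCBX8-2 ended without control replicate 1 (0.0569) or 2 (0.0769), and the difference between the groups ended without control replicate 1 (0.0765) or 2 (0.078) and without shCBX8-1 replicate 1 (0.211) or 2 (0.181).

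The counts of NOP56 and DKC1 were spread over coding and non-coding RefSeq transcripts of each gene. Of NOP56, the non-coding transcripts held 70.8 and 74.1% of the estimated counts in control, 72.6 and 84.6% under shCBX8-1 and 83.3 and 70.4% under shCBX8-2. The coding transcript alone stood at 114 and 94.8 CPM in control, 116 and 66.1 under shCBX8-1 and 90.4 and 151 under shCBX8-2, so that its groups overlapped, while the non-coding sum stood at 277 and 272, 307 and 362, and 450 and 359. Of DKC1, the coding transcripts summed to 121 and 88.4 CPM in control, 119 and 211 under shCBX8-1 and 104 and 131 under shCBX8-2, and also overlapped. The statements on NOP56, DKC1 and TCOF1 are therefore on the gene sums. With only the most abundant transcript of each gene, 0 of the 35 genes were called in any comparison, and the log2 fold change in shCBX8-2 was 0.02 ± 0.50 (SE) for DKC1, 0.19 ± 0.20 for NOP16 and 0.91 ± 0.66 for TCOF1. The other 3 genes called there were at 0.48 ± 0.09 (NOP56, adjusted p = 0.0958), 0.38 ± 0.05 (NCL, 0.0618) and 0.36 ± 0.04 (PA2G4, 0.053). Of all genes, 160 were called in shCBX8-2 with that setting, against 2158 with the gene sums. NOP56 also holds 5 annotated snoRNA genes within its bounds and DKC1 holds 2, among 25 such genes in 7 of the 35.

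**Figure D2:**
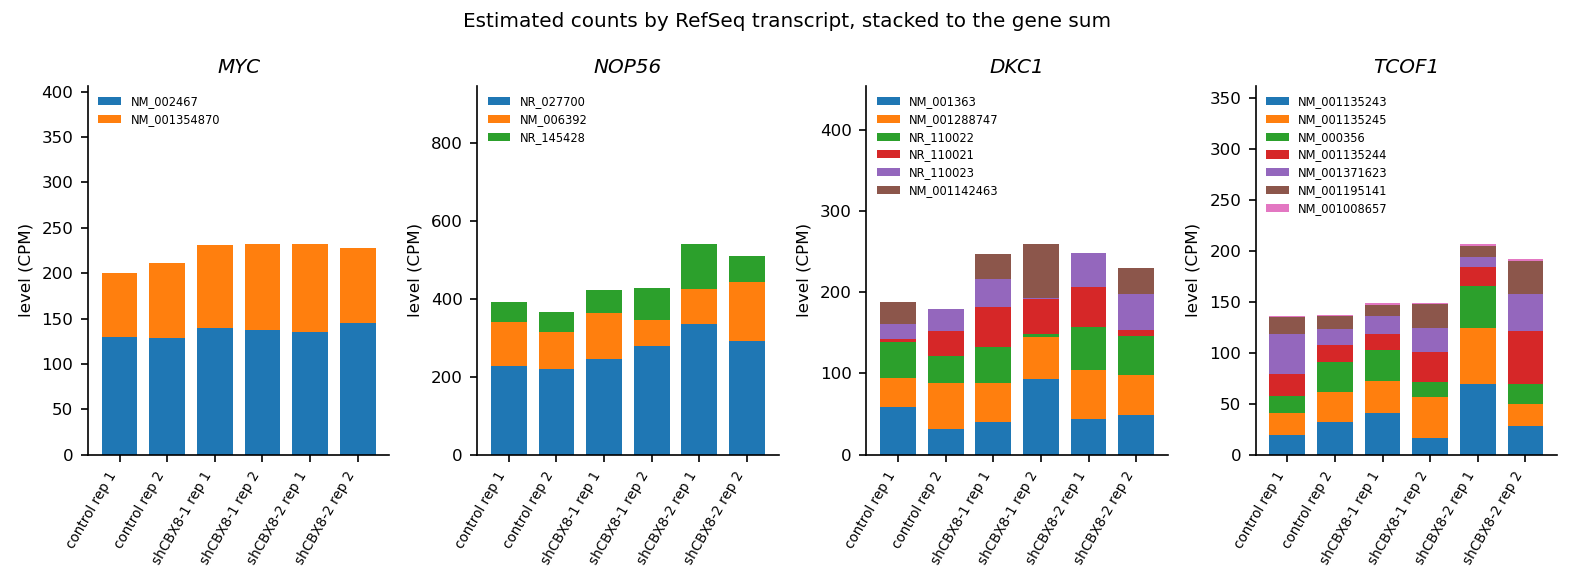
Estimated counts as CPM (y axis, linear, from 0), stacked by RefSeq transcript (colours) to the gene sum, in each of the 6 libraries (x axis) for MYC, NOP56, DKC1 and TCOF1. The heights of the stacks follow the groups, while the layers of DKC1 and TCOF1 differ between the 2 libraries of a group, as in DKC1, whose coding share is 48.1% in one shCBX8-1 library and 81.3% in the other.

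Among 5 genes of RNA polymerase I and ribosomal DNA transcription, TCOF1 rose and the polymerase subunits did not pass. TCOF1 (chr5:150357697-150400293) encodes treacle, a nucleolar protein that supports ribosomal DNA transcription and is mutated in Treacher Collins syndrome. It stood at 136 and 137 CPM in control, 149 and 149 under shCBX8-1 and 207 and 192 under shCBX8-2. The groups did not overlap, and the shCBX8-2 libraries were the highest. The log2 fold change was 0.33 ± 0.06 (SE) for the knockdown mean (adjusted p = 0.0293), 0.12 ± 0.07 in shCBX8-1 (adjusted p = 0.457) and 0.54 ± 0.07 in shCBX8-2 (adjusted p = 0.00692), the largest of the 35 in that group, and shCBX8-2 was above shCBX8-1 by 0.42 ± 0.07 (adjusted p = 0.018). The catalytic subunits POLR1A and POLR1B stood at -0.09 ± 0.07 and 0.10 ± 0.09 for the knockdown mean (adjusted p = 0.491 and 0.539). MYBBP1A, a nucleolar MYB-binding protein, was at 0.09 ± 0.07 and the helicase DDX21 at -0.01 ± 0.10. The TCOF1 knockdown call ended without control replicate 1 (adjusted p = 0.187), control replicate 2 (0.222), shCBX8-1 replicate 1 (0.102) or shCBX8-1 replicate 2 (0.104), that in shCBX8-2 without control replicate 1 (0.067) or 2 (0.0689), and the difference between the groups without control replicate 1 (0.0576) or 2 (0.058) and without shCBX8-1 replicate 1 (0.129) or 2 (0.127).

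Among the 6 nucleolar phosphoproteins and growth factors, PA2G4 rose in the knockdown mean and NCL in shCBX8-2. PA2G4 (chr12:56104559-56113910) encodes EBP1, an ErbB3-binding protein found in the nucleolus and on ribosomes. It stood at 541 and 539 CPM in control, 594 and 620 under shCBX8-1 and 713 and 683 under shCBX8-2. The 3 groups did not overlap and stood in that order. Its log2 fold change was 0.27 ± 0.05 (SE) for the knockdown mean (adjusted p = 0.0326), 0.17 ± 0.06 in shCBX8-1 (adjusted p = 0.223) and 0.37 ± 0.06 in shCBX8-2 (adjusted p = 0.0123), and the difference between the groups, 0.20 ± 0.06, did not pass (adjusted p = 0.0878). The annotation names 5 pseudogene copies of PA2G4 and an opposite-strand gene that shares exon bases with it, so that its counts may hold reads of these. Its knockdown call ended without control replicate 1 (adjusted p = 0.186), control replicate 2 (0.235), shCBX8-1 replicate 1 (0.0914) or shCBX8-1 replicate 2 (0.11), and that in shCBX8-2 without control replicate 1 (0.0851) or 2 (0.0935).

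NCL (chr2:231453531-231464484) encodes nucleolin, an abundant RNA-binding protein of the nucleolus. It stood at 831 and 799 CPM in control, 755 and 799 under shCBX8-1 and 1061 and 1067 under shCBX8-2. The shCBX8-2 libraries were above all other libraries, and shCBX8-1 overlapped with control. On the log2 scale the change was -0.07 ± 0.06 (SE) in shCBX8-1 (adjusted p = 0.64) and 0.39 ± 0.06 in shCBX8-2 (adjusted p = 0.0105), with 0.16 ± 0.05 for the knockdown mean (adjusted p = 0.125). The difference between the groups was 0.45 ± 0.06 (adjusted p = 0.00786), the smallest adjusted p of the 35 in that comparison. Of the other 4 genes of this role, NOLC1, a snoRNP chaperone, had the highest log2 fold change for the knockdown mean, 0.25 ± 0.07 (adjusted p = 0.0884), and NPM1, the abundant nucleolar chaperone nucleophosmin, the lowest, 0.11 ± 0.05 (adjusted p = 0.288). GNL3, the nucleolar GTPase nucleostemin (0.16), and LYAR, a nucleolar zinc-finger protein (0.18), stood between them. NPM1 has 45 pseudogene copies by name, more than any other of the 35. The NCL call in shCBX8-2 ended without control replicate 1 (adjusted p = 0.0777) or 2 (0.107), and the difference between the groups without shCBX8-1 replicate 1 (0.0997) or 2 (0.0728).

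None of the 8 genes of small subunit maturation passed edgeR's test against control, and 1, UTP20, differed between the knockdown groups. Their log2 fold changes for the knockdown mean ran from -0.12 ± 0.07 (SE) for RRP12, an export and assembly factor (adjusted p = 0.37), to 0.17 ± 0.11 for BYSL, bystin (adjusted p = 0.384), with 0 of the 8 at an unadjusted p under 0.05 and 0 called by DESeq2. In shCBX8-1 these were 0 and 0, and in shCBX8-2 1 and 1, both UTP20. UTP20 (chr12:101280105-101386618), a very large scaffold protein of the small subunit processome, stood at 48.7 and 42.5 CPM in control, 40.7 and 46.6 under shCBX8-1 and 60.2 and 59.6 under shCBX8-2. The shCBX8-2 libraries were above all others and shCBX8-1 overlapped with control. The log2 fold change was -0.06 ± 0.11 in shCBX8-1 (adjusted p = 0.848) and 0.39 ± 0.11 in shCBX8-2 (adjusted p = 0.062, or 0.00907 in DESeq2 and 0.0166 in edgeR with the GC correction), and the difference between them was 0.46 ± 0.11 (adjusted p = 0.048). This call ended without control replicate 1 (adjusted p = 0.108) or 2 (0.107) and without shCBX8-1 replicate 1 (0.304) or 2 (0.155). The other 5 genes of the role lay between -0.03 and 0.09: the processome proteins HEATR1 and WDR43, the U3 snoRNP protein RRP9, the endonuclease NOB1, which makes the final cut of the small subunit RNA, and the helicase DDX10.

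Of the 8 genes of large subunit maturation, 0 passed for the knockdown mean and NOP16 rose in shCBX8-2. At an unadjusted p under 0.05 there were 4 for the knockdown mean, and DESeq2 called 1. NOP16 (chr5:176383946-176388598), a nucleolar protein of early large subunit particles, stood at 94.2 and 91.8 CPM in control, 101 and 97.7 under shCBX8-1 and 128 and 115 under shCBX8-2. The groups did not overlap and stood in that order. Its log2 fold change was 0.09 ± 0.08 (SE) in shCBX8-1 (adjusted p = 0.643), 0.39 ± 0.08 in shCBX8-2 (adjusted p = 0.0282) and 0.24 ± 0.07 for the knockdown mean (adjusted p = 0.101), and the difference between the groups was 0.29 ± 0.08 (adjusted p = 0.0743). Exons of ARL10 and HIGD2A on the opposite strand share bases with NOP16, and whether the counting used strand is not given in the sources used here. The NOP16 call ended without control replicate 1 (adjusted p = 0.132) or 2 (0.169), without shCBX8-1 replicate 1 (0.0666) or 2 (0.0675), and with only the libraries compared in the fit (0.0617). The lowest of this role was WDR12, at -0.19 ± 0.07 (adjusted p = 0.195), and the highest NOP16 and PPAN, both at 0.24 (PPAN ± 0.11, adjusted p = 0.255). WDR12 stood at 43.5 to 43.7 CPM in control and 37.8 to 38.7 in the knockdown libraries. It binds PES1 and BOP1 in the PeBoW complex of large subunit processing, and these partners stood at 0.13 ± 0.06 and 0.14 ± 0.08, on the other side of 0. NOP2, an RNA methyltransferase, stood at 0.17, and the assembly factors RRS1 and NIP7 at 0.20 and 0.05.

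**Figure D3:**
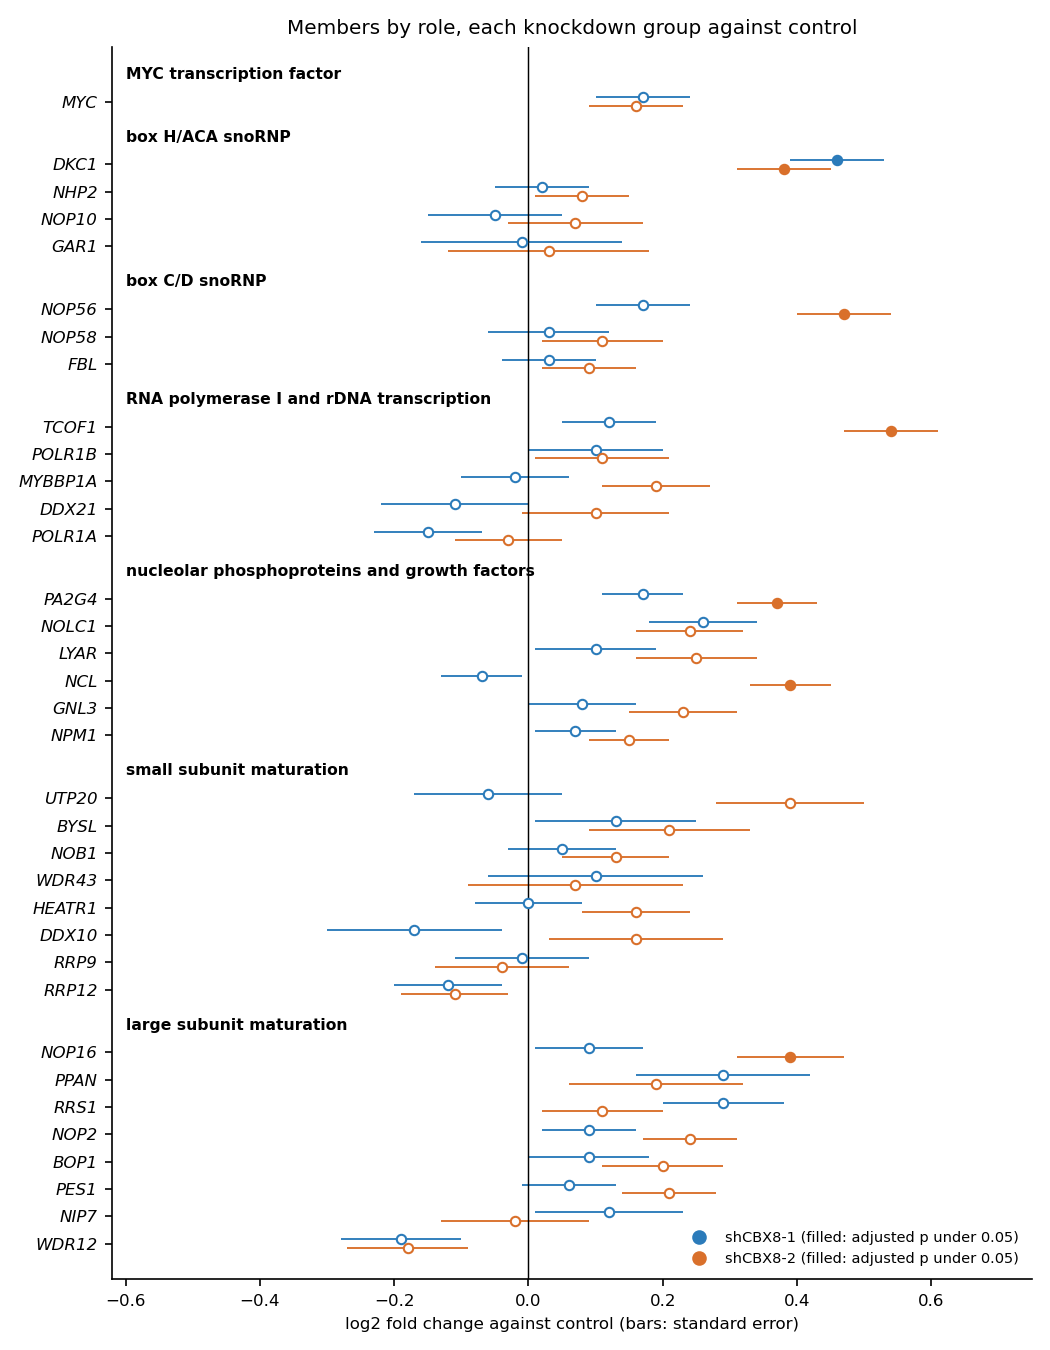
Log2 fold change against control (x axis) of each of the 35 genes (y axis, grouped by role) in shCBX8-1 (blue) and shCBX8-2 (orange), with bars of 1 SE and filled points where the adjusted p was under 0.05. Of the 35, 1 is filled in blue and 6 in orange, all to the right of 0, and WDR12 lies left of 0 in both groups, at -0.19 and -0.18.

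Between the knockdown groups, 4 of the 35 genes were higher in shCBX8-2 than in shCBX8-1, NCL, TCOF1, NOP56 and UTP20, and 0 were lower, beside 3.98% of all genes that were higher and 5.71% that were lower. The median difference was 0.09, beside -0.01 over all genes. The differences ran from -0.18 for RRS1 to 0.46 for UTP20, and 27 of 35 (77.1%) were above 0, beside 48.5% of all genes. At an unadjusted p under 0.05 there were 8, and DESeq2 called 6 higher and 0 lower, beside 8.08% of all genes called higher. Without shCBX8-1 replicate 1 or 2, 0 of the 35 were called, and without shCBX8-2 replicate 2 there were 9 calls, of which 2 were lower, beside 28.3% of all genes called in that setting. The median moved from 0.09 to 0.02 without shCBX8-1 replicate 1. CBX8 itself was higher in shCBX8-2 than in shCBX8-1, as given above, and the residual CBX8 level and the other differences between the groups cannot be told apart.

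All 4 knockdown libraries were above both controls in 12 of the 35 genes (34.3%), beside 13.2% of all genes tested. These were MYC, DKC1, NOP56, POLR1B, TCOF1, NOLC1, PA2G4, LYAR, NOP2, NOP16, PES1 and BOP1. All 4 were below both controls in 2, RRP12 and WDR12 (5.71%), beside 15.5% of all genes. In the other 21 the libraries overlapped. The values in control spanned 20.9 CPM (GAR1) to 1414 CPM (NPM1) as group means. Per kilobase of the most abundant transcript, the control level was highest for NPM1, at 885 CPM per kb, followed by FBL at 353, and lowest for UTP20, at 5.05. The higher a gene's GC content, the higher it tended to be in shCBX8-2 replicate 1 relative to replicate 2: over the 35 genes the Spearman correlation was 0.68 (Pearson 0.64), against 0.57 (0.55) in shCBX8-1 and -0.45 (-0.48) in control. These are descriptions across genes that share libraries. In shCBX8-2 the difference between the replicates ran from -0.52 (WDR43) to 0.28 (BYSL) on the log2 scale, and with a correction for GC content 8 of the 35 rose for the knockdown mean, 4 in shCBX8-1 and 13 in shCBX8-2, beside 9.65%, 5.65% and 13.2% of all genes in the same fit.

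The other genes of these pathways were read from 11 lists, which hold 303 tested genes outside the 35. For the knockdown mean 7 of them rose (2.31%) and 2 fell (0.66%), beside 3.31% and 3.47% of all genes. In shCBX8-1 2 rose (0.66%) and 1 fell (0.33%), beside 1.30% and 1.10% of all genes. In shCBX8-2 17 rose (5.61%) and 3 fell (0.99%), beside 6.0% and 6.61%. Between the groups 13 were higher in shCBX8-2 (4.29%) and 3 were lower (0.99%), beside 3.98% and 5.71%. Without either control library 0 of the 303 were called for the knockdown mean or in shCBX8-1, and in shCBX8-2 1 was called without control replicate 1 and 0 without control replicate 2. Without either shCBX8-1 library 0 were called for the knockdown mean or in shCBX8-1, and in shCBX8-2 9 rose and 2 fell. Without shCBX8-2 replicate 1 or 2 there were more, 35 and 65 that rose for the knockdown mean (11.6% and 21.5%), beside 9.05% and 10.8% of all genes.

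In the MYC network, the partners and antagonists of MYC, 13 of 14 genes were tested, and 1 rose and 1 fell for the knockdown mean, both MAX-binding repressors of the MXD family. MXD3 stood at 21.9 and 26.2 CPM in control, 33.7 and 31.2 under shCBX8-1 and 49.6 and 42 under shCBX8-2, a log2 fold change of 0.68 ± 0.12 (SE) for the knockdown mean (adjusted p = 0.0252). MXD4 went the other way, with 61.4 and 59.8 CPM in control, 47.1 and 49.9 under shCBX8-1 and 41.4 and 34.3 under shCBX8-2, and -0.50 ± 0.09 (adjusted p = 0.0289). Neither overlapped with control in any knockdown library. In shCBX8-2 MLX, the partner of the MondoA and ChREBP factors, and MLXIPL, which encodes ChREBP, also fell, by 0.45 ± 0.08 (adjusted p = 0.0155) and 0.79 ± 0.19 (adjusted p = 0.0382) on the log2 scale, while 0 genes of the list passed in shCBX8-1 (6 at an unadjusted p under 0.05, and DESeq2 called 1 higher and 1 lower). Both calls in shCBX8-2 ended when either control library was left out, and that of MLXIPL also without either shCBX8-1 library or shCBX8-2 replicate 1. Between the groups 1 gene of the list was lower in shCBX8-2, MLX (-0.57 ± 0.08, adjusted p = 0.00892), and 0 were higher. Of all genes, 5.71% were lower and 3.98% higher. The MLX difference ended when either shCBX8-1 library was left out. The median of the list was -0.14 for the knockdown mean. MXD3 and MXD4 had their highest adjusted p with 1 library left out at 0.198 and 0.229, without control replicate 1 and control replicate 2.

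In the polymerases, the shared subunit POLR2L, which belongs to RNA polymerases I, II and III, rose in both groups. It stood at 160 and 149 CPM in control, 221 and 231 under shCBX8-1 and 234 and 222 under shCBX8-2, with 0.55 ± 0.07 (SE) for the knockdown mean (adjusted p = 0.00958). It was the single call among 18 other genes of RNA polymerase I for that comparison. UBTF, the ribosomal DNA transcription factor UBF, rose in shCBX8-2 (0.33 ± 0.07, adjusted p = 0.032) and stood at 0.00 ± 0.07 in shCBX8-1 (adjusted p = 0.989). The difference between the groups was 0.33 (adjusted p = 0.0405). Of 20 genes of RNA polymerase III, which makes 5S ribosomal RNA and transfer RNA, POLR3K rose for the knockdown mean (0.57 ± 0.10, adjusted p = 0.0236). It passed in shCBX8-2 (0.69 ± 0.11, adjusted p = 0.012) and not in shCBX8-1 (0.45 ± 0.11, adjusted p = 0.0948). With 1 library left out, the highest adjusted p for the knockdown mean was 0.141 for POLR2L and 0.223 for POLR3K, both without control replicate 2, and for UBTF 0.159 in shCBX8-2, without control replicate 2, and 0.213 between the groups, without shCBX8-1 replicate 1.

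Among the processing factors, 1 of 41 other small subunit processome genes rose, AATF, which stood at 122 and 114 CPM in control, 157 and 168 under shCBX8-1 and 185 and 173 under shCBX8-2 (0.53 ± 0.07 SE, adjusted p = 0.0123). It passed in both knockdown groups. Of 47 other large subunit assembly genes, SBDS, which releases the anti-association factor eIF6 from new large subunits, rose for the knockdown mean (0.31 ± 0.07, adjusted p = 0.0484). MRTO4 and LAS1L rose in shCBX8-2 (0.34 ± 0.08 and 0.31 ± 0.07, adjusted p = 0.0318 and 0.0407). Between the groups 2 of the 47 were higher in shCBX8-2, RRP1B (0.53 ± 0.09, adjusted p = 0.0144) and GNL2 (0.40 ± 0.09, adjusted p = 0.0401), and 0 were lower. Of all genes, 3.98% were higher and 5.71% lower. The RRP1B and GNL2 differences each ended when either control or either shCBX8-1 library was left out. Of 14 genes of the nuclear exosome, the RNA-degrading complex that trims the precursor, its nuclease EXOSC10 rose for the knockdown mean (0.36 ± 0.07, adjusted p = 0.0387). It stood at 0.17 ± 0.08 in shCBX8-1 (adjusted p = 0.37) and 0.54 ± 0.08 in shCBX8-2 (adjusted p = 0.0105). EXOSC9 also rose in shCBX8-2 (0.37 ± 0.09, adjusted p = 0.0362). Between the groups 3 of the 14 were higher in shCBX8-2, EXOSC9, EXOSC10 and EXOSC5, and 0 were lower, beside 3.98% and 5.71% of all genes. These 3 differences, and the EXOSC9 call against control, each ended when either control or either shCBX8-1 library was left out. None of 10 snoRNP assembly factors passed in any comparison with control, with 3 at an unadjusted p under 0.05 in each, while DESeq2 called 0 for the knockdown mean, 1 lower in shCBX8-1 and 1 higher in shCBX8-2. Between the groups 1 of the 10 was higher in shCBX8-2 than in shCBX8-1, NAF1, an assembly factor of the H/ACA particle, named after its values had been seen. It stood at 18.5 and 16.4 CPM in control, 10.1 and 11.5 under shCBX8-1 and 17.6 and 20.1 under shCBX8-2, a difference of 0.80 ± 0.14 (SE, adjusted p = 0.0199), which ended without either control library or either shCBX8-1 library (highest adjusted p = 0.197). The medians for the knockdown mean were 0.13, 0.11, 0.17 and -0.01 in these 4 lists. With 1 library left out, the highest adjusted p for the knockdown mean was 0.164 for AATF, 0.363 for SBDS and 0.304 for EXOSC10, each without control replicate 2, where in shCBX8-2 it was 0.177 for MRTO4 and 0.201 for LAS1L.

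Of 29 MYC target genes outside the nucleolus, 0 passed for the knockdown mean, and in shCBX8-2 6 rose and 0 fell. Beside these, 3.31% of all genes rose for the knockdown mean, and 6.0% rose and 6.61% fell in shCBX8-2. The 6 were LDHA, RCC1, CAD, CDK4, IMPDH2 and SLC19A1, named after their values had been seen. The calls of RCC1, CAD, CDK4, IMPDH2 and SLC19A1 ended when either control library was left out. Those of CDK4, IMPDH2 and SLC19A1 also ended when either shCBX8-1 library was left out. For the knockdown mean there were 8 at an unadjusted p under 0.05, and DESeq2 called 7 higher and 0 lower, beside 7.83% of all genes called higher. In shCBX8-2 DESeq2 called 10 higher and 1 lower, beside 10.7% of all genes called higher. LDHA, the lactate dehydrogenase subunit of glycolysis, stood at 2653 and 2572 CPM in control, 2398 and 2466 under shCBX8-1 and 3651 and 3481 under shCBX8-2. It was higher in shCBX8-2 than in all other libraries, by 0.45 ± 0.05 (SE) against control (adjusted p = 0.00466), and it differed between the groups by 0.55 (adjusted p = 0.00264). IMPDH2, an enzyme of guanine nucleotide synthesis, stood at 254 and 256 CPM in control, 203 and 219 under shCBX8-1 and 329 and 302 under shCBX8-2, and differed between the groups by 0.58 (adjusted p = 0.00786). Between the groups 3 genes of the list were higher in shCBX8-2 than in shCBX8-1, LDHA, IMPDH2 and CDK4, beside 3.98% of all genes. The CDK4 difference ended when either control or either shCBX8-1 library was left out. HK2 and CTPS1, also named after their values had been seen, were the 2 that were lower, beside 5.71% of all genes. HK2, a hexokinase of glycolysis, stood at 2.41 and 2.54 CPM in control, 3.57 and 2.85 under shCBX8-1 and 0.489 and 1.18 under shCBX8-2. Its difference between the groups was -1.95 ± 0.42 (SE, adjusted p = 0.0358), and in shCBX8-2 against control it stood at -1.57 ± 0.42 (adjusted p = 0.0551). CTPS1, which makes CTP, stood at 149 and 133 CPM in control, 185 and 178 under shCBX8-1 and 139 and 126 under shCBX8-2, a difference of -0.45 ± 0.09 (adjusted p = 0.0268). The HK2 difference ended without either control library or either shCBX8-1 library (highest adjusted p = 0.219), and that of CTPS1 without either shCBX8-1 library (highest 0.15). The list medians were 0.10 for the knockdown mean, 0.04 in shCBX8-1 and 0.18 in shCBX8-2. Without control replicate 2 the LDHA call against control ended (adjusted p = 0.0582), while its difference between the groups passed with each library left out (highest adjusted p = 0.0474). The IMPDH2 difference ended without shCBX8-1 replicate 1 (0.0851) and without shCBX8-1 replicate 2.

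Of the genes for the proteins of the ribosome itself, none of 79 cytosolic ribosomal protein genes was called in any of the 4 comparisons, with 1, 2 and 9 at an unadjusted p under 0.05 for the knockdown mean, shCBX8-1 and shCBX8-2, and 18 between the groups, and with 0, 0, 4 and 7 called by DESeq2. Over all genes DESeq2 called 14.3%, 8.63%, 20.8% and 17.3% in these comparisons. In shCBX8-1 23 of 79 were above 0, with a median of -0.05, and in shCBX8-2 71 of 79, with a median of 0.09, and 77 of 79 were higher in shCBX8-2 than in shCBX8-1, with a median of 0.15, beside 48.5% of all genes above 0. The side in shCBX8-1 depended on single libraries: without its replicate 1 47 of 79 were above 0 with a median of 0.02, without its replicate 2 6 of 79 with a median of -0.10, and without control replicate 1 38 of 79 with a median of -0.00. In shCBX8-2 the median was 0.02 without its replicate 1 and 0.17 without its replicate 2, where 32 of 79 were called, beside 30.7% of all genes. The difference between the groups kept a median above 0 in every setting run, from 0.07 without shCBX8-1 replicate 1 or shCBX8-2 replicate 1 to 0.22 without shCBX8-2 replicate 2, where 51 of 79 were called, beside 28.3% of all genes. Many ribosomal protein genes have processed pseudogenes, and the values of single genes may be shared with these. Of 15 translation factors and other mRNAs with a terminal oligopyrimidine start, HNRNPA1 rose for the knockdown mean (0.31 ± 0.05 SE, adjusted p = 0.0207), where the list median was -0.03. It passed in shCBX8-2 (0.38 ± 0.06, adjusted p = 0.00962) and not in shCBX8-1 (0.24 ± 0.06, adjusted p = 0.0954). Between the groups 2 of the 15 were higher in shCBX8-2, TPT1 (0.31 ± 0.06, adjusted p = 0.028) and EEF1B2 (0.37 ± 0.08, adjusted p = 0.0409), and 0 were lower. Of all genes, 3.98% were higher and 5.71% lower. The TPT1 and EEF1B2 differences each ended when either control or either shCBX8-1 library was left out. Of 17 long non-coding RNA host genes of snoRNAs, SNHG29 fell for the knockdown mean, by 0.26 ± 0.06 on the log2 scale (adjusted p = 0.049). It stood at -0.37 ± 0.07 in shCBX8-1 (adjusted p = 0.0464) and -0.15 ± 0.07 in shCBX8-2 (adjusted p = 0.214). SNHG1 rose in shCBX8-2 (0.35 ± 0.08, adjusted p = 0.0286) and was higher there than in shCBX8-1 (0.37 ± 0.08, adjusted p = 0.031). Both SNHG1 calls ended when either control or either shCBX8-1 library was left out. DESeq2 called 0 higher and 4 lower in shCBX8-1, and 3 higher and 1 lower in shCBX8-2. It called 4.88% and 10.7% of all genes higher in these comparisons, and 8.63% and 20.8% in either direction. The list median was -0.06 for the knockdown mean, -0.12 in shCBX8-1 and 0.00 in shCBX8-2. With 1 library left out, the highest adjusted p for the knockdown mean was 0.189 for HNRNPA1 and 0.241 for SNHG29, both without control replicate 2.

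**Figure D4:**
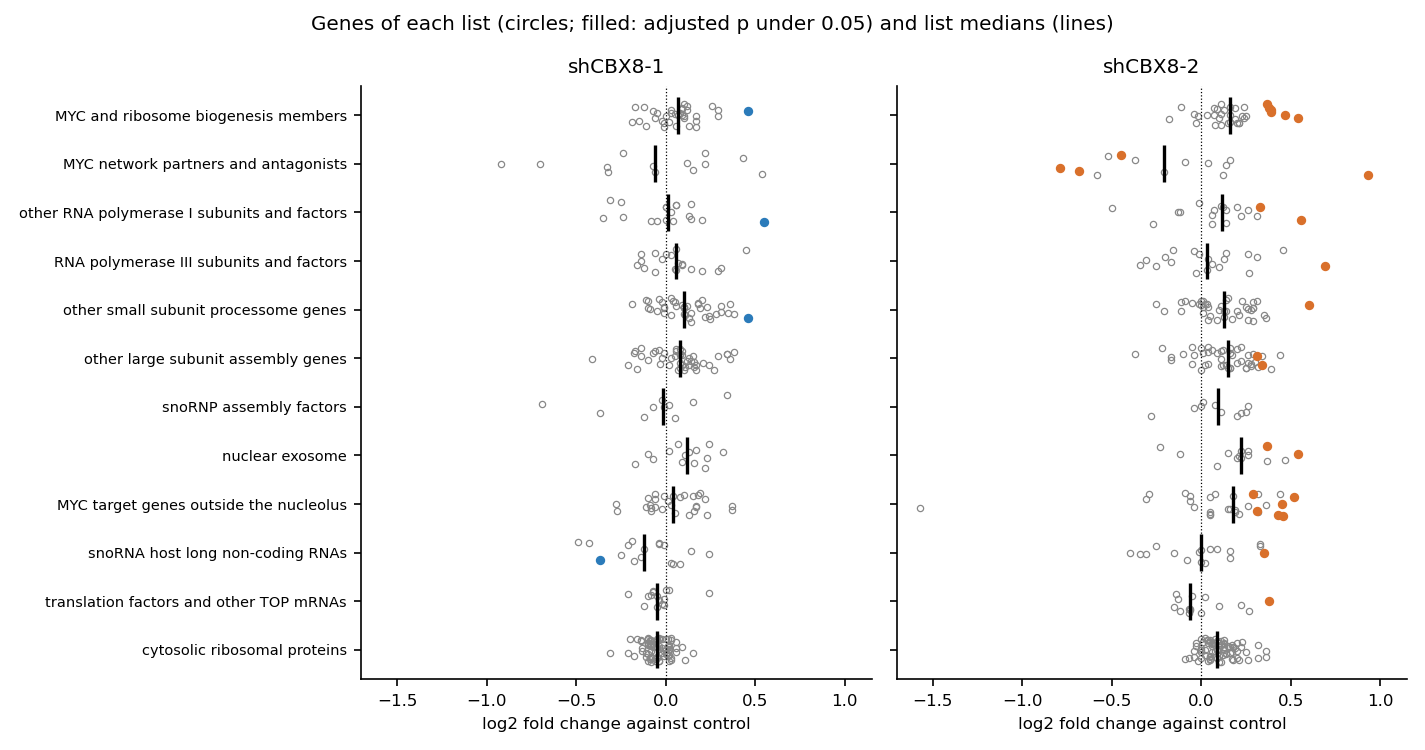
Log2 fold change against control (x axis) of single genes (circles, filled where the adjusted p was under 0.05) in the 35 genes and 11 further lists (y axis), with the list median as a line, in shCBX8-1 (left) and shCBX8-2 (right). The cytosolic ribosomal proteins lie mostly left of 0 in shCBX8-1 (median -0.05, but 0.02 without replicate 1 of that group and -0.00 without control replicate 1) and right of 0 in shCBX8-2 (median 0.09), with 0 filled in either.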

How the data were processed

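The values were estimated counts (expected counts) per RefSeq transcript in 6 libraries, as deposited by the authors, not scaled to a common total and already whole. Per the submitters' processing notes, HISAT2 2.2.1, StringTie 2.2.1, DESeq2 1.34.0 and the build hg38 were used, with roles not given in the sources used here. Of 84787 transcripts, 83963 were matched to genes by RefSeq (GRCh38.p14) and 357 by GENCODE tables, and 467 unmatched ones stayed separate entries. Transcripts were summed per gene, and repeated accessions held 2.89 to 3.17% of a library's counts. In R 4.3.3, edgeR 4.0.16 was used (filterByExpr, minimum count 10 and total 15; TMM scaling; quasi-likelihood F test, 3 groups, 3 residual degrees of freedom; two-sided, Benjamini-Hochberg over 17122 genes, threshold 0.05). SE was the log2 fold change over the root of F. The procedure was tested on simulated data. DESeq2 1.42.0 and other settings were alternatives.

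The genes and lists were chosen with earlier results of these data known, so lists are given by counts and medians, with no test. Genes called in any of 4 contrasts, and MYC, are described in full, and of each list up to 3 called genes with the smallest p for the knockdown mean; list genes called in shCBX8-2 alone or between groups were named after their values were seen. The labels do not say whether replicate numbers pair the libraries. Over all genes tested the correlations of replicate 1 deviations between groups were -0.00894, -0.0119 and 0.0267, which does not exclude pairing. At 64197784 to 67169537 counts per library, errors are taken from the spread between libraries, with 2 in a group. The promoter table held 28 of the 35 genes. Protein sequences were not used here.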

Additional observations from a re-analysis of the deposited data

Results flagged for a closer look

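Of the 35 genes, 4 differed between the knockdown groups by the test of the difference itself, each higher in shCBX8-2 than in shCBX8-1. The log2 difference was 0.45 ± 0.06 (SE, adjusted p = 0.00786) for NCL, 0.42 ± 0.07 (adjusted p = 0.018) for TCOF1, 0.31 ± 0.07 (adjusted p = 0.038) for NOP56 and 0.46 ± 0.11 (adjusted p = 0.048) for UTP20. NCL and UTP20 had log2 fold changes against control of -0.07 and -0.06 in shCBX8-1 and of 0.39 and 0.39 in shCBX8-2. TCOF1 and NOP56 were above both controls in both groups. Without shCBX8-1 replicate 1 the adjusted p was 0.0997, 0.129, 0.211 and 0.304, in the order in which the differences are given.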

How the results depend on the processing

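The median log2 fold change over the 35 genes kept its sign in every alternative run and moved by less than the spread between libraries, except that with 1 library left out it ran from 0.02 to 0.12 between the knockdown groups; against control it then ran from 0.09 to 0.13 for the knockdown mean, 0.06 to 0.11 in shCBX8-1 and 0.14 to 0.18 in shCBX8-2. The counts of called genes moved more. For the knockdown mean, shCBX8-1, shCBX8-2 and the difference between the groups they were 4, 1, 6 and 4. They became 8, 3 and 12 in the first 3 with the DESeq2 Wald test, 0, 0, 0 and 0 with the most abundant transcript only, and 8, 4, 13 and 8 with a correction for transcript GC content, which was chosen after seeing the data. The counts over all genes moved the same way: they were 1161, 411, 2158 and 1660, and became 2446, 1477, 3560 and 2959 with DESeq2, 19, 6, 160 and 114 with the most abundant transcript only, and 2744, 1524, 3865 and 3175 with the GC correction. With the 4 knockdown libraries as 1 group 0 were called for the knockdown mean, beside 27 of all genes. With only the libraries compared in the fit 4 were called in shCBX8-1, 4 in shCBX8-2 and 1 between the groups. Over all genes these calls were 2420, 995 and 642. With 1 library left out the counts ran from 0 to 12, 0 to 4, 0 to 13 and 0 to 9. A group left with 1 library is then assumed to vary like the others.

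With replicate number as a block, 1 gene was called for the knockdown mean, 0 in shCBX8-1, 6 in shCBX8-2 and 2 between the groups. Over all genes the calls with the block were 686, 168, 1668 and 1083, against 1161, 411, 2158 and 1660 without it. Whether the numbers pair the libraries is not stated by the labels. The correlations of deviations were near 0 over all genes, which does not exclude pairing, so the block is given as a setting only. Calls changed no sign.

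CBX8 kept its direction throughout. Its log2 fold change was -1.11 (adjusted p = 0.252) with the knockdown libraries as 1 group, -0.71 (0.0674) in shCBX8-2 with only the libraries compared, and -1.21, -1.71, -0.70 and 1.01 with the most abundant transcript only, none of which passed (0.087, 0.111, 0.134 and 0.0959). With 1 library left out it ran from -1.29 to -1.12 for the knockdown mean, -1.75 to -1.65 in shCBX8-1, -0.87 to -0.52 in shCBX8-2 and 0.84 to 1.20 between the groups. The cause of these changes was not tested. The lowest of the 35 genes had a control mean of 20.9 CPM.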
